A study of Mus musculus with 8 samples.

Results

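Collagen genes were compared between atrioventricular canals of control mouse embryos and canals in which the zinc finger transcription factor Gata4 had been deleted from endothelium and from the mesenchyme that it supplies to the cushions. A gene counted as a collagen when its official symbol was Col, a number, the letter a and a number, and when its probe sets carried that 1 symbol. The rule gave 42 genes with 82 probe sets, of 18194 named genes on the array. A gene was represented by its brightest probe set, the one with the highest mean over all 8 arrays. Of the 42, 30 passed the filter on dim probe sets and were tested, among 12069 named genes tested.

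The control pools were Gata4flox/flox, and the mutant pools were Gata4flox/flox and carried the T2Cre transgene. T2Cre expresses Cre recombinase from the Tie2 promoter (official symbol Tek), so that the myocardium of the canal was not targeted. All mice had a mixed C57BL6/129 background, and no source used here gives the embryonic stage. Each of the 4 control and 4 mutant samples was a pool of 10 dissected canals, from which 50 ng of total RNA was amplified isothermally (NuGen) and hybridised to 1 Affymetrix Mouse 430 2.0 array. No label says that controls carried Cre, and the effects of losing Gata4 and of carrying Cre cannot be told apart. The labels do not say whether pools shared litters, and p-values measure the spread between these pools.

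Collagens are triple-helical proteins of the extracellular matrix, built from alpha chains that come from 1 gene or from several. Fibrillar types form the fibres of connective tissue, type IV forms the network of basement membranes, and types II, IX and XI form the fibrils of cartilage, with type IX on the fibril surface. In the embryonic heart the endocardial cushions are swellings of matrix that mesenchyme invades and that later become valves. Valve precursors are known to express fibrillar collagens and several cartilage genes. The comparison asks which of these chains differ in canals whose endothelial lineage was targeted for deletion of Gata4.

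Values are log2(signal + 16) after quantile normalization, a scale that understates changes of dim genes. Background was read from 27 bacterial control probe sets on each array, and a probe set had to exceed their 90th percentile to count as above it. Controls 2 and 3 stood apart, with bacterial medians of 158 and 135 against 4.002 to 39.3 on the other 6 arrays, and had the lowest weights in the fit (0.302 and 0.350). Per the design text 2 noisy controls were excluded, without saying which, and all 4 are in the table used here. Cardiomyocyte markers were above background on all 8 arrays for 13 of 13 genes, and cushion mesenchyme markers for 12 of 14. Gata4 had a mean of 11.25 ± 0.17 in the controls and 11.12 ± 0.15 in the mutants (SD, n = 4 each) on its brighter probe set, with a log2 change of -0.15 (SE 0.11, limma adjusted p = 0.585). This value does not check the deletion, because untargeted myocardium expresses Gata4 and the position of the probe set relative to the deleted part is not given.

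No collagen gene passed the adjusted p threshold of 0.05 in limma, 0 of 30, against 12 of 27022 probe sets, or 0.0444% (0.0259% higher and 0.0185% lower). At an unadjusted p under 0.05 there were 5 collagen genes, or 16.7%, against 12.6% of all probe sets (7.31% higher and 5.33% lower). Col4a1, Col4a2, Col2a1 and Col22a1 were on the higher side in the mutants and Col9a1 on the lower side. Control and mutant arrays did not overlap for 5 genes, also 16.7%, against 7.63% of all probe sets (4.44% higher and 3.19% lower). These were Col4a1, Col4a2 and Col2a1, higher, and Col9a1 and Col9a3, lower. Here and below, shares of listed genes count the brightest probe set of each gene, while shares of all probe sets count every tested probe set, dimmer ones included. The median log2 change over the 30 genes was 0.00, with 15 positive and 15 negative, against 0.03 over all tested probe sets. In pooled tissue, fewer cells of a type and less RNA per cell cannot be told apart.

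**Figure D1:**
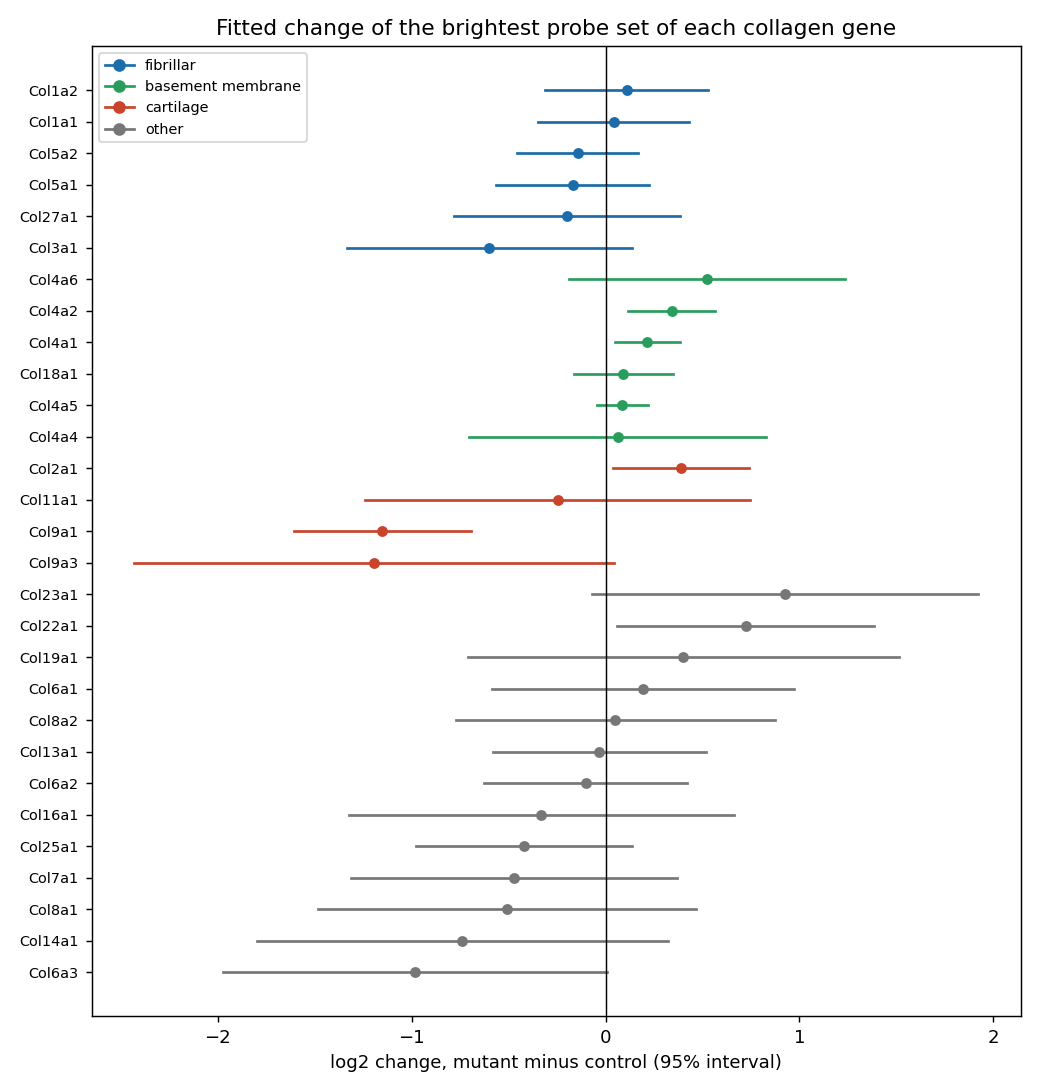
Log2 change, mutant minus control, of the brightest probe set of each of 29 collagen genes, with 95% intervals from limma and colours for the 4 classes; Col12a1 is left out because it was above background on 1 control array. Col9a1 lies well left of 0 (interval -1.61 to -0.69), and the 6 basement membrane genes lie right of 0 with all 8 arrays, against 4 of 6 without control 1.

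Cartilage collagens held the member nearest to the threshold, Col9a1, which encodes the alpha 1 chain of type IX collagen. Of the 6 cartilage genes, 4 were tested, with 1 positive and 3 negative changes and a median of -0.70. With median-centred arrays the class median was 0.015, or -1.12 from the median of all probe sets. The promoter windows of Col9a1, which has 2 start sites in the table used, are printed because this gene had the smallest p among the collagens. Col3a1 is printed beside it as the fibrillar gene with the smallest p, and because its window holds matches of both motifs searched. The windows are the 250 bases before each start in RefSeq, build GRCm38.p6, plus strand, written 5′ to 3′. They lie at chr1:24177360-24177609 for the first Col9a1 start, chr1:24194953-24195202 for the second and chr1:45311288-45311537 for Col3a1. Capitals mark matches to AACAAT, a core letter string bound by SOX factors, or to a GATA factor string, the letters GATA preceded by A or T and followed by A or G, on either strand.
Col9a1 start 1: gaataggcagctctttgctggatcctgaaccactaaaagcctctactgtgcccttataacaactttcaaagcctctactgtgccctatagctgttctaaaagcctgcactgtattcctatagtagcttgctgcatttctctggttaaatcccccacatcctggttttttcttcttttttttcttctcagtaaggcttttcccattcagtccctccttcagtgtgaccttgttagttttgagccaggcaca
Col9a1 start 2: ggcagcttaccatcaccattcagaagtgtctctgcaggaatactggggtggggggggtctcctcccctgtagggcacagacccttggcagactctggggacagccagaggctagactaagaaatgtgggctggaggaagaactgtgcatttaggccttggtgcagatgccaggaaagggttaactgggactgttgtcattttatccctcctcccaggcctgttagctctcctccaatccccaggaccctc
Col3a1: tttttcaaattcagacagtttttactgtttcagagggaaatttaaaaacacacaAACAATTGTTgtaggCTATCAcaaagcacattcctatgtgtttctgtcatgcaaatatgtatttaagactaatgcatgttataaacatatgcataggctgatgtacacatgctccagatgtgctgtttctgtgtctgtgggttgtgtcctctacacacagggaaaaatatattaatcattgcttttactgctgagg

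Neither Col9a1 window held a match to either motif. The Col3a1 window held 2 overlapping SOX matches, beginning 196 and 192 bases before the start, and 1 GATA match at 181 bases before it, which does not overlap them. Entries were found for 33 of the 42 collagen genes, with 36 windows. The SOX string was found in 1 of these 36 windows (2.78%), against 9.42% of 32851 windows of all genes. A GATA string was found in 5 of 36 (13.9%), against 26.5% of all windows. A match is a description of letters and not of a bound site.

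On its brightest probe set Col9a1 read 9.80, 9.90, 10.04 and 9.37 in controls 1 to 4 and 8.21, 8.76, 8.88 and 8.31 in mutants 1 to 4. Every mutant array lay below every control array, and all 8 were above background. The means were 9.78 ± 0.29 and 8.54 ± 0.33 (SD, n = 4 each). The weighted log2 change was -1.15 (SE 0.22, 95% interval -1.61 to -0.69, limma adjusted p = 0.0693), which corresponds to a level 2.22 times higher in the controls. The change was negative under all 22 alternatives, from -1.35 to -0.20, and passed the threshold under 8 of them, with adjusted p between 0.00795 and 0.54. The value of -0.20 came with each array centred on its median. That scaling moved the median change of all probe sets to 1.13, and Col9a1 lay at -1.34 from it. Without controls 2 and 3 the change was -1.14 (adjusted p = 0.364). The dimmer Col9a1 probe set was above background on 3 control arrays and 1 mutant array, with 6.25, 7.75, 8.20 and 6.89 in the controls and 5.42, 6.30, 6.34 and 6.25 in the mutants, and no size is given for it.

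Col9a3, the alpha 3 chain of the same type IX trimer, had values of 7.95, 8.24, 8.05 and 7.82 in controls 1 to 4 and 6.96, 7.46, 7.69 and 5.37 in mutants 1 to 4. The groups did not overlap, but the mutants spread widely, from 5.37 on mutant 4, which was below background, to 7.69 on mutant 3. The log2 change was -1.19 (SE 0.58, interval -2.43 to 0.04, adjusted p = 0.408). With 1 array left out at a time it ran from -1.61 without mutant 3 to -0.50 without mutant 4. Col9a2, the remaining chain of the trimer, was too dim to be tested, with 6.30, 5.58, 4.74 and 5.55 in the controls and 5.61, 5.83, 6.09 and 4.96 in the mutants. It exceeded background on 0 control arrays and 1 mutant array.

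Col2a1 encodes the only chain of type II collagen, the fibril that type IX decorates. It had 10.56, 9.44, 9.55 and 10.46 in controls 1 to 4 and 10.68, 10.82, 10.70 and 10.61 in mutants 1 to 4. All 4 mutant arrays were above all controls, with controls 2 and 3 low and controls 1 and 4 close to the mutants. The log2 change was 0.39 (SE 0.17, interval 0.04 to 0.74, adjusted p = 0.363). Without controls 2 and 3 it was 0.17 (adjusted p = 0.858), without control 1 it was 0.97 (adjusted p = 0.0154) and without control 4 it was 0.91 (adjusted p = 0.0216). The value therefore rested on which controls were kept.

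The log2 ratio of Col9a1 to Col2a1, set relative to the mean of the controls, ran from -0.87 to 0.72 over the controls and from -2.25 to -1.60 over the mutants, without overlap. The mean difference was -1.94. This ratio was chosen after the values were seen, and it carries the low Col2a1 values of controls 2 and 3. Col11a1, a chain of type XI collagen at the fibril core, had 7.21, 6.87, 6.34 and 7.25 in the controls and 5.71, 6.88, 7.42 and 6.74 in the mutants, with overlap. Its log2 changes were -0.25 (SE 0.47, interval -1.24 to 0.75, adjusted p = 0.853) and -0.65 (SE 0.51, adjusted p = 0.609) on its 2 tested probe sets. Col11a2 was above background on 0 arrays.

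**Figure D2:**
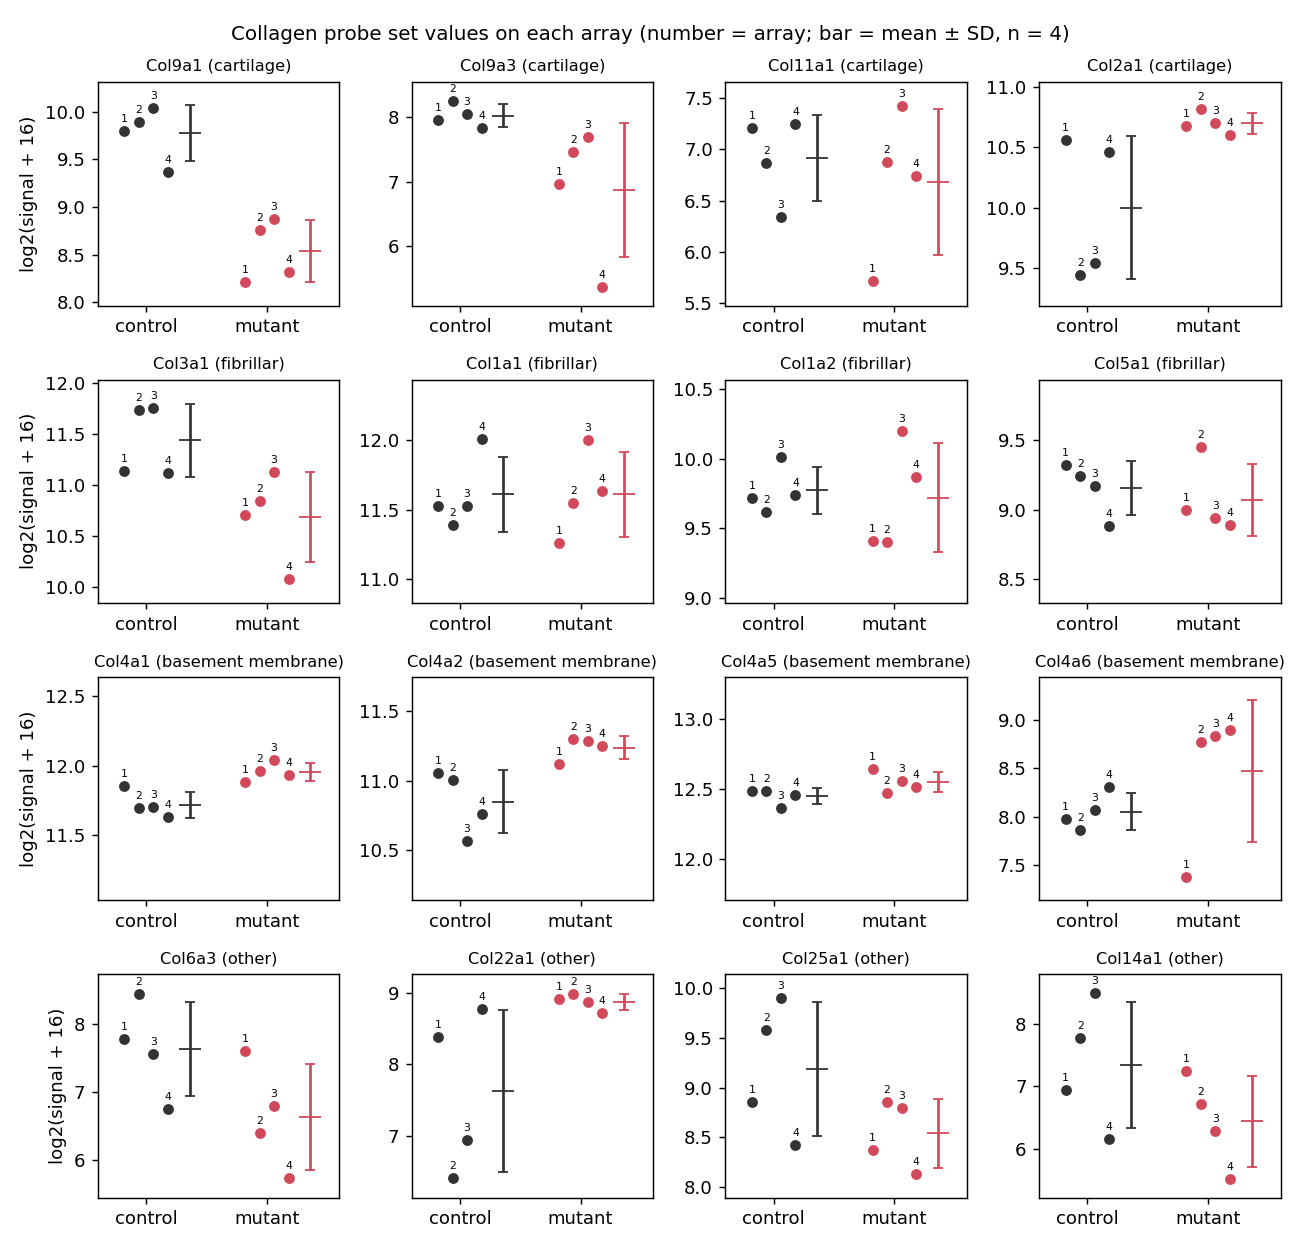
Log2(signal + 16) on each array for 16 collagen genes, 4 of each class, with array numbers beside the points and bars for mean ± SD (n = 4 per group); the axes differ between panels and do not start at 0. The Col9a1 mutants lie between 8.21 and 8.88, below all controls, while for Col2a1 and Col22a1 controls 2 and 3 lie apart from controls 1 and 4.

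The regulators of cartilage collagen transcription were examined beside these genes. Sox9, the SOX factor needed for chondrogenesis and expressed in cushion mesenchyme, had 12.76, 12.74, 12.70 and 12.40 in controls 1 to 4 and 11.97, 12.16, 12.25 and 11.98 in mutants 1 to 4. The groups did not overlap. Its log2 change was -0.54 (SE 0.10, limma adjusted p = 0.0585), and its other tested probe sets had -0.65 (adjusted p = 0.388) and -0.79 (adjusted p = 0.523). With median-centred arrays the change was 1.07, or -0.06 from the median of all. Its partners Sox6 and Sox5 had changes of -0.09 (SE 0.21, adjusted p = 0.891) and 0.15 (SE 0.39, adjusted p = 0.898). Of 11 cartilage marker genes other than collagens, which include Sox9, Sox5 and Sox6, 6 were tested, with 2 positive and 4 negative changes. The summed signal of all 11 was 15704 to 18831 in the controls and 13501 to 15047 in the mutants. Its brightest members were Sox9 and Hapln1, a matrix link protein with means of 13.23 and 13.09. By plain group means, without array weights, Matn1, Matn3, Comp, Cnmd, Ucma, Sox5 and Sox6 were higher in the mutants. Acan, Matn4, Hapln1 and Sox9 were lower. Of these, Matn1, Matn4, Comp, Cnmd and Ucma were too dim to be tested. Matn3 had means of 7.73 in the controls and 7.77 in the mutants, and Acan 7.43 and 6.99.

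Markers of cushion mesenchyme had a lower summed signal in the mutants. Of 14 markers, which include Sox9, 3 had positive and 11 negative changes, with a median of -0.16 and 0 past the threshold. Their summed signal was 48496 to 49783 in the controls and 37155 to 44280 in the mutants, so that the groups did not overlap. At an unadjusted limma p under 0.05, 6 of the 14 markers were lower and 0 were higher, against 5.33% and 7.31% of all probe sets. The list was chosen with earlier results of these data known, so its counts and sums are not independent of those results. The part of the mesenchymal share in the Col9a1, Col9a3 and Col3a1 values was not tested.

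Among fibrillar collagens, Col3a1 had the most negative change. Of 8 fibrillar genes, 6 were tested and all 6 were above background on all 8 arrays, with 2 positive and 4 negative changes and a median of -0.16. With median-centred arrays this was 1.06, or -0.07 from the median of all. No fibrillar gene had an unadjusted p under 0.05 on its brightest probe set, 0 of 6 against 12.6% of all probe sets, and the smallest adjusted p was 0.472. By plain group means, without array weights, all 6 fibrillar differences were negative. Changes within the class ran from -0.60 to 0.11.

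Col3a1 encodes the chain of type III collagen, a fibre of distensible tissue. Its brightest probe set had 11.13, 11.74, 11.75 and 11.11 in controls 1 to 4 and 10.70, 10.84, 11.12 and 10.08 in mutants 1 to 4. The groups overlapped by a single pair, mutant 3 against control 4. The log2 change was -0.60 (SE 0.32, interval -1.33 to 0.14, adjusted p = 0.472). Its other probe set had 11.22, 11.58, 11.48 and 11.05 in the controls and 10.51, 10.51, 10.97 and 10.04 in the mutants, without overlap. There the change was -0.71 (SE 0.24, interval -1.25 to -0.18, limma adjusted p = 0.312). Without controls 2 and 3 the brightest probe set had -0.48 (adjusted p = 0.879). Leaving out single arrays gave values from -0.95 without control 1 to -0.32 without mutant 4.

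Type I collagen, the most abundant fibrillar type of connective tissue, is built from Col1a1 and Col1a2 chains. Col1a1 had 11.52, 11.39, 11.52 and 12.003 in the controls and 11.26, 11.55, 11.998 and 11.63 in the mutants, with means of 11.61 ± 0.27 and 11.61 ± 0.31 (SD, n = 4 each). Its log2 change was 0.04 (SE 0.18, interval -0.35 to 0.43, adjusted p = 0.943). A dimmer Col1a1 probe set, above background on 2 control and 4 mutant arrays, had 0.66 (SE 0.53, adjusted p = 0.619). On the brightest probe set the groups overlapped, and mutant 1 was the lowest array.

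Col1a2 had 9.72, 9.62, 10.01 and 9.74 in the controls and 9.41, 9.40, 10.20 and 9.87 in the mutants. Its log2 changes were 0.11 (SE 0.20, interval -0.31 to 0.53, adjusted p = 0.847) and, on a second probe set, 0.01 (SE 0.18, adjusted p = 0.982). The groups overlapped. The sign of both type I changes turned under other settings, such as a fit without array weights (-0.0009 for Col1a1 and -0.053 for Col1a2).

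Type V collagen, whose chains sit inside type I fibrils, is encoded by Col5a1, Col5a2 and Col5a3. Col5a1 had 9.32, 9.24, 9.17 and 8.88 in the controls and 8.998, 9.45, 8.94 and 8.89 in the mutants, with a log2 change of -0.17 (SE 0.19, interval -0.56 to 0.23, adjusted p = 0.730). Its other probe sets had -0.36 (adjusted p = 0.442) and -0.21 (adjusted p = 0.834). Col5a2 had 10.29, 10.61, 10.70 and 10.53 in the controls and 10.39, 9.82, 10.46 and 10.24 in the mutants. Its probe sets disagreed in sign, with -0.14 (SE 0.15, adjusted p = 0.705) on the brighter and 0.21 (SE 0.21, adjusted p = 0.688) on the other. Both genes had overlapping groups, and Col5a3 was too dim to be tested.

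Col27a1, a fibrillar collagen also known from cartilage, had 7.75, 7.75, 8.67 and 8.05 in the controls and 8.08, 8.23, 7.66 and 7.51 in the mutants. Its log2 change was -0.20 (SE 0.28, adjusted p = 0.789), with -0.11 on the other probe set. The groups overlapped. Set relative to the control mean within each array, the log2 ratio of Col3a1 to Col1a1 ran from -0.71 to 0.52 in the controls and from -1.38 to -0.38 in the mutants, with a mean difference of -0.75. The ratio to Col1a2 had a mean difference of -0.70 and that to Col5a2 -0.45, and all 3 ratios overlapped between groups. They were chosen after the values were seen.

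Of 8 basement membrane collagen genes, 6 were tested, all 6 were above background on all 8 arrays, and all 6 changes were positive, from 0.06 to 0.53 with a median of 0.15. Over all tested probe sets 53.8% were positive. None of the 6 passed the threshold, and the smallest adjusted p was 0.252. The shared sign was not kept under every setting. Positive changes numbered 5 of 6 on the authors' scaling, without array weights, with the 3 prime to 5 prime ratio as a covariate, with the mean of probe sets, and without control 3, mutant 3 or mutant 4. They numbered 4 of 6 without control 1 and without control 4. Col4a4, which had 0.06 in the weighted fit, had plain group means of 7.28 in the controls and 7.16 in the mutants.

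Col4a1 and Col4a2 encode the chains of the most widespread type IV trimer and are neighbouring genes transcribed from opposite strands. Col4a1 had 11.85, 11.70, 11.70 and 11.63 in controls 1 to 4 and 11.88, 11.96, 12.04 and 11.93 in mutants 1 to 4. Col4a2 had 11.06, 11.01, 10.57 and 10.76 in the controls and 11.12, 11.30, 11.28 and 11.25 in the mutants. For both genes every mutant array was above every control array, and control 1 was the control nearest to the mutants. The log2 change of Col4a1 was 0.22 (SE 0.08, interval 0.05 to 0.39, limma adjusted p = 0.319). That of Col4a2 was 0.34 (SE 0.11, interval 0.12 to 0.56, limma adjusted p = 0.252).

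A second Col4a1 probe set also showed no overlap, with 9.48, 9.01, 9.58 and 9.56 in the controls and 9.77, 9.75, 9.69 and 9.72 in the mutants, and a change of 0.26 (SE 0.15, adjusted p = 0.479). Without controls 2 and 3 the changes were 0.23 for Col4a1 (adjusted p = 0.759) and 0.35 for Col4a2 (adjusted p = 0.691), close to those with all arrays. Without control 1 that of Col4a2 was 0.50 (adjusted p = 0.0401). The within-array log2 ratio of Col4a1 to Col4a2, relative to the control mean, was -0.18 to 0.26 in the controls and -0.21 to -0.11 in the mutants, so the groups overlapped.

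Col4a5 and Col4a6 are a second neighbouring type IV pair, which form a trimer of smooth muscle and epithelial basement membranes. Col4a5 had 12.49, 12.48, 12.36 and 12.45 in the controls and 12.64, 12.47, 12.56 and 12.52 in the mutants, with a change of 0.09 (SE 0.06, interval -0.05 to 0.22, adjusted p = 0.579). Its other probe set had 10.34, 10.80, 10.79 and 10.02 in the controls and 10.30, 10.11, 10.09 and 9.94 in the mutants. The change there was of opposite sign, -0.27 (SE 0.15, adjusted p = 0.459), and controls 2 and 3 were its highest arrays. Col4a6 had 7.97, 7.86, 8.07 and 8.31 in the controls and 7.38, 8.77, 8.84 and 8.90 in the mutants. Mutant 1 was its lowest array and the other 3 mutants were its highest, with a change of 0.53 (SE 0.34, interval -0.19 to 1.24, adjusted p = 0.524).

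Col18a1, a basement membrane collagen whose C-terminal fragment is endostatin, had 10.32, 10.48, 10.70 and 10.19 in the controls and 10.34, 10.56, 10.50 and 10.38 in the mutants. Its changes were 0.09 (SE 0.12, adjusted p = 0.778) and 0.05 (adjusted p = 0.905) on its 2 tested probe sets. The weighted change of Col4a4 had an SE of 0.36 (adjusted p = 0.961). Col4a3 and Col15a1 were too dim to be tested.

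Markers of 3 cell types that make or border basement membranes were also higher in sum. The summed signal of 15 endothelial markers was 8683 to 9644 in the controls and 10134 to 10815 in the mutants, with 11 positive and 3 negative changes among the 14 tested. That of 13 epicardial markers, with 10 positive changes and 1 negative among the 11 tested, was 6538 to 7953 and 8978 to 13021. That of the 13 cardiomyocyte markers, all 13 positive, was 123942 to 129824 and 134785 to 139651. None of the 3 sums overlapped between groups, and 0 markers passed the threshold singly. At an unadjusted limma p under 0.05, 7 of 14 endothelial, 7 of 11 epicardial and 8 of 13 cardiomyocyte markers were higher. The share of all probe sets was 7.31%. Of these 7 endothelial markers, only Emcn was above background on all 4 control arrays. Egfl7 and Sox17 were above it on 3 control arrays, Tie1, Sox18 and Plvap on 2 and Erg on 1. In the lower direction there was 1 endothelial marker, Npr3 (log2 change -0.56, groups without overlap), against 5.33% of all probe sets. These 3 lists were likewise chosen with earlier results of these data known. The part of these cell types in the type IV values was not tested. Erythroid, macrophage, and foregut and liver sums overlapped between the groups, with Hba-a1 and Adgre1 below background on all arrays.

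The other 20 collagens were the most mixed class. Of these, 14 were tested, and 3 were above background on all 8 arrays. There were 6 positive and 8 negative changes, from -0.98 to 0.93, with a median of -0.07. With median-centred arrays the class median was 0.23, or -0.91 from the median of all. None of the 14 had groups without overlap, against 7.63% of all probe sets. An unadjusted p under 0.05 was found for 1 of 14, Col22a1 (7.14%), against 12.6% of all probe sets. The smallest adjusted p of the class was 0.367.

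Col22a1, a fibril-associated collagen of tissue junctions such as that of muscle and tendon, had 8.38, 6.41, 6.94 and 8.77 in controls 1 to 4 and 8.91, 8.98, 8.88 and 8.72 in mutants 1 to 4. Controls 2 and 3 were low and below background, and control 4 lay above mutant 4. The log2 change was 0.72 (SE 0.31, interval 0.06 to 1.39, limma adjusted p = 0.367), and 0.30 (adjusted p = 0.858) without controls 2 and 3. Without control 1 it was 1.72 (adjusted p = 0.0188) and without control 4 it was 1.67 (adjusted p = 0.0207). A second Col22a1 probe set had 0.28 (adjusted p = 0.750), and the remaining one was above background on 0 control arrays.

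Type VI collagen forms beaded filaments around cells from the Col6a1, Col6a2 and Col6a3 chains. Col6a3 had 7.78, 8.44, 7.55 and 6.75 in the controls and 7.59, 6.39, 6.79 and 5.73 in the mutants, with a change of -0.98 (SE 0.47, interval -1.97 to 0.01, adjusted p = 0.398), or -0.78 without controls 2 and 3. Col6a1 had 8.50, 6.47, 6.59 and 7.55 in the controls and 7.61, 7.50, 8.14 and 8.11 in the mutants, with 0.19 (SE 0.37, adjusted p = 0.852). Col6a2 had 8.29, 8.003, 8.04 and 8.11 in the controls and 8.48, 8.17, 7.84 and 8.10 in the mutants, with -0.10 (SE 0.25, adjusted p = 0.889). The groups overlapped for all 3 chains. With 1 array left out the change of Col6a3 ran from -1.36 without control 4 to -0.55 without mutant 4, and that of Col6a1 from -0.21 without control 3 to 1.24 without control 1. The change of Col6a1 was negative without controls 2 and 3 (-0.065).

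Of the transmembrane collagens, Col23a1 had 5.26, 6.64, 7.36 and 6.91 in the controls and 6.73, 7.02, 6.90 and 7.49 in the mutants. Background was exceeded on 2 control and 4 mutant arrays, and its change was 0.93 (SE 0.47, interval -0.07 to 1.92, adjusted p = 0.426). With 1 array left out at a time that value ran from 0.036 without control 1 to 1.39 without control 3. Col25a1 had 8.85, 9.58, 9.90 and 8.42 in the controls and 8.37, 8.86, 8.79 and 8.13 in the mutants. Its highest arrays were controls 2 and 3, and its change was -0.42 (SE 0.26, adjusted p = 0.513), or -0.15 without them. Without control 4 it was -1.01 (adjusted p = 0.0597), without control 1 it was -0.997, and without mutant 4 it was -0.24.

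Fibril-associated collagens bridge fibrils and the surrounding matrix. Col14a1 had 6.95, 7.77, 8.49 and 6.15 in the controls and 7.24, 6.72, 6.28 and 5.52 in the mutants, with a change of -0.74 (SE 0.50, adjusted p = 0.551), which was -0.33 without controls 2 and 3. Its range over fits with 1 array left out was -1.59 without control 4 to -0.33 without mutant 4. Col12a1 had 6.68, 6.05, 6.56 and 7.94 in the controls and 8.02, 6.40, 7.49 and 7.22 in the mutants. Background was exceeded on 1 control and 4 mutant arrays, so no size is given. The remaining 7 tested genes with a size, Col4a4 of the basement membrane class and Col7a1, Col8a1, Col8a2, Col13a1, Col16a1 and Col19a1 of the other class, had changes from -0.51 to 0.40, of which 3 were positive, and a smallest unadjusted p of 0.251.

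**Figure D3:**
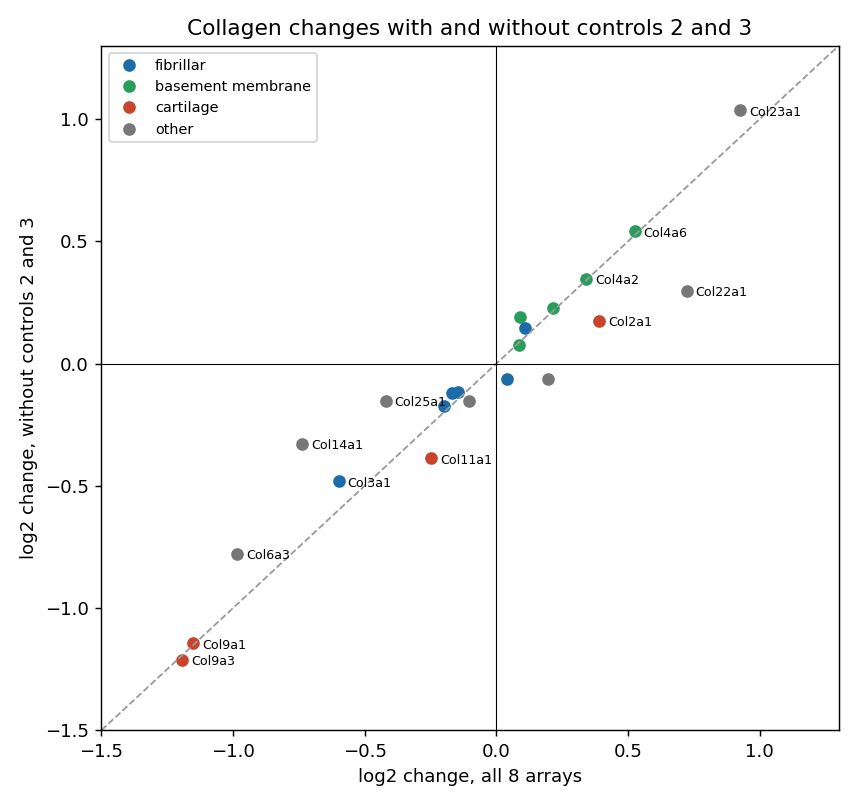
Log2 change of the 22 collagen genes described singly, with all 8 arrays (horizontal) and without controls 2 and 3 (vertical), both from limma with array weights; the dashed line marks equal values. Col9a1 (-1.15 and -1.14), Col9a3 and the type IV genes lie near the line, while Col22a1 (0.72 and 0.30) and Col2a1 (0.39 and 0.17) lie below it.

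The 12 collagen genes left untested were Col5a3 and Col24a1 of the fibrillar class, Col4a3 and Col15a1 of the basement membrane class, Col9a2 and Col11a2 of the cartilage class, and Col6a4, Col6a5, Col10a1, Col17a1, Col20a1 and Col26a1. None of them was above background on more than 3 of 8 arrays on its brightest probe set. Col10a1, a marker of hypertrophic cartilage, was above background on 0 arrays.

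The classes were also followed array by array, as the median over a class of each gene's deviation from its control mean. For the cartilage class this was 0.16, 0.04, -0.21 and 0.07 in controls 1 to 4 and -1.13, -0.30, 0.09 and -0.82 in mutants 1 to 4. Mutants 1 and 4 were low, and mutant 3 lay inside the control range. For basement membrane genes it was 0.09, 0.05, 0.00 and -0.09 in the controls and 0.08, 0.19, 0.23 and 0.21 in the mutants, where mutants 2 to 4 lay above all controls. For fibrillar genes it was -0.17, -0.04, 0.21 and -0.02 in the controls and -0.25, -0.22, -0.14 and -0.28 in the mutants. For other collagens it was 0.10, -0.17, -0.07 and 0.11 in the controls and 0.01, 0.03, -0.21 and 0.04 in the mutants. All 4 classes overlapped between groups, and the differences between classes were not tested.

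**Figure D4:**
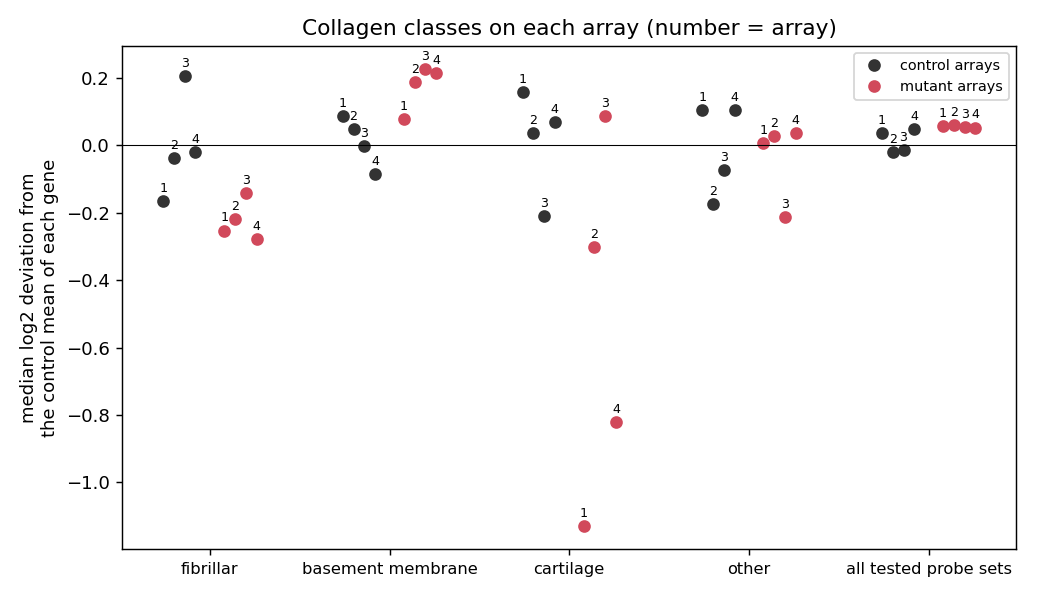
Median log2 deviation from the control mean for each collagen class and for all tested probe sets, 1 point per array with its number, controls and mutants in separate colours. The cartilage mutants spread from -1.13 to 0.09, while mutants 2 to 4 of the basement membrane class lie between 0.19 and 0.23.

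Agreement between probe sets of the same gene depended on the array weights. Of 13 collagen genes with more than 1 tested probe set, 11 had the same sign on all of them in the weighted fit and 2, Col4a5 and Col5a2, did not. By plain group means 8 had the same sign, and Col1a1, Col5a1 and Col27a1 joined those that did not, 5 in all. Genes beside each other on a chromosome, by their order among protein-coding genes in RefSeq, formed 7 pairs of collagens, of which 5 had both members tested. Changes had the same sign in 3 pairs, Col4a1 and Col4a2 (0.22 and 0.34), Col4a6 and Col4a5 (0.53 and 0.09), and Col3a1 and Col5a2 (-0.60 and -0.14). Signs differed for Col9a1 and Col19a1 (-1.15 and 0.40) and for Col6a2 and Col6a1 (-0.10 and 0.19). This difference came with the array weights. By plain group means all 5 pairs had the same sign, with Col19a1 at 6.84 in the controls and 6.78 in the mutants and Col6a2 at 8.11 and 8.15.

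**Figure D5:**
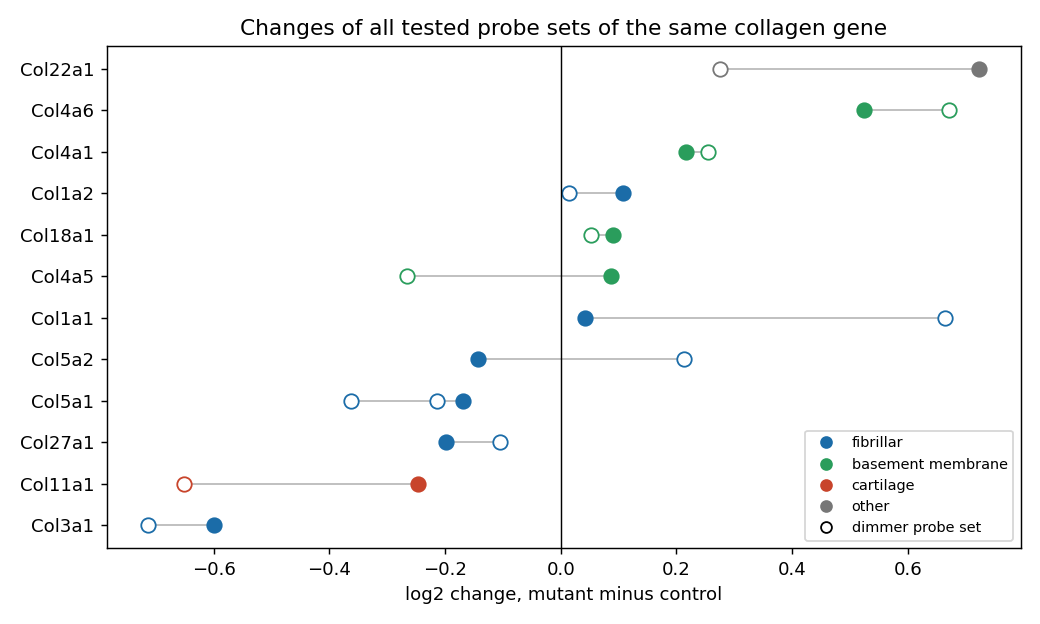
Log2 change of each tested probe set for the 12 collagen genes with 2 or more probe sets above background on at least 2 arrays of each group (25 probe sets), with filled points for the brightest and open points for the others. The Col3a1 points lie together at -0.60 and -0.71, while those of Col4a5 (0.09 and -0.27) and Col5a2 (-0.14 and 0.21) lie on opposite sides of 0.

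Collagen chains are hydroxylated, folded, secreted, trimmed and cross-linked by a shared set of enzymes and chaperones. Of 35 such genes listed, 31 had a probe set and 26 were tested. There were 15 positive and 11 negative changes, with a median of 0.04, and 0 passed the threshold. At an unadjusted p under 0.05, 5 of the 26 were higher and 1 of the 26 was lower, against 7.31% and 5.33% of all probe sets. The higher ones were Crtap, P3h4, P3h1, Plod3 and Loxl1, and the lower one was P4hb. Plod3 was above background on 1 control array, so no size is given for it. This list too was chosen with earlier results of these data known.

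Crtap and P3h1 are partners in the complex that hydroxylates proline at the third carbon. Crtap had 9.21, 8.64, 8.05 and 9.37 in controls 1 to 4 and 9.50, 9.82, 9.68 and 9.70 in mutants 1 to 4, without overlap. Its log2 change was 0.62 (SE 0.20, adjusted p = 0.273). Controls 2 and 3 were low, and the change was 0.43 without them, 1.18 without control 1 (adjusted p = 0.0188) and 1.11 without control 4 (adjusted p = 0.0227). P3h1 had 0.54 (SE 0.23, adjusted p = 0.363) and the related P3h4 0.56 (SE 0.23, adjusted p = 0.355). P4hb, the disulfide isomerase subunit of prolyl 4-hydroxylase, had -0.15 (SE 0.06, adjusted p = 0.321) and no overlap between groups.

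Among receptors for collagen, only the integrin subunit Itga1 passed the threshold, and it was higher in the mutants. It pairs with the beta 1 subunit and binds type IV and type I collagen. Its brightest probe set had 11.66, 11.33, 11.41 and 11.37 in controls 1 to 4 and 12.14, 12.04, 12.01 and 12.11 in mutants 1 to 4, without overlap. The log2 change was 0.56 (SE 0.09, limma adjusted p = 0.0183), a 1.48-fold rise, where 0.0259% of all probe sets were called higher. Its second probe set had 0.73 (SE 0.22, adjusted p = 0.244), also without overlap. Without mutant 1 the adjusted p was 0.0551, and without controls 2 and 3 the change was 0.57 with an adjusted p of 0.143. Itga1 also did not pass with eBayes without trend and robust, with the 3 prime to 5 prime ratio as a covariate, or with the mean of its probe sets. The part of cell type shares in the Itga1 value was not tested.

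The other 6 receptors tested did not pass. Itga10, a subunit that binds cartilage collagens, had -0.76 (SE 0.43, adjusted p = 0.468). The beta subunit Itgb1 had -0.17 (SE 0.15, adjusted p = 0.653), and Ddr2, a receptor tyrosine kinase for fibrillar collagen, had -0.29 (SE 0.35, adjusted p = 0.755). Over the 7 receptors there were 2 positive and 5 negative changes, with a median of -0.17.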

How the data were processed

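The 8 columns hold 1-colour array intensities deposited by the authors, and the submitters' processing notes name MAS5 without a version. The authors' scaling left a mean signal of 714.971 on each array, while medians differed by up to 3.76 times. The table has 45101 probe sets, of which 34958 carried 1 gene symbol, 932 several and 9211 none in the platform annotation. Symbols were matched to RefSeq (GRCm38.p6) by Entrez ID for all 42 collagens.

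Intensities were taken as log2(signal + 16) and quantile normalized, since 2% trimmed means differed by 1.12 times, above a rule of 1.1. The 40% dimmest probe sets by mean and 64 array controls were left out, leaving 27022. Groups were compared with limma 3.58.1 in R 4.3.3 (array weights, eBayes with trend and robust), two-sided, with Benjamini-Hochberg adjustment over all 27022 probe sets. Means and SDs are unweighted, so their difference can depart from the fitted change. The number of arrays limits the precision.

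Members and lists were chosen with earlier results of these data known. Values on every array are given for the 5 members of each class with the smallest p and for 18 collagens whatever their p. All probe sets are given where signs differed or 1 had an unadjusted p under 0.05. Of the listed partner genes, sizes are given for those past the threshold, the 4 of each list with the smallest p, and Sox9. A size is given only where at least 2 arrays of each group were above background. Class medians and counts carry no test. The replicate numbers were not used to pair the samples in the main fit. Deviations of same-numbered arrays correlated at -0.13 to 0.17, which does not exclude a pairing.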

Additional observations from a re-analysis of the deposited data

Results flagged for a closer look

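Dixon's ratio, the gap from an end sample to its neighbour divided by the range of the group, was computed for 66 groups of 4 arrays, and 2 exceeded the 95% critical value. Chance exceeds it in about 1 in 20 groups. Mutant 1 was low for Col4a6, at 7.38 with the nearest mutant at 8.77 (ratio 0.918). Control 4 was low for Sox9, at 12.40 with the nearest control at 12.70 (ratio 0.84).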

How the results depend on the processing

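The count of probe sets past the threshold, 12 with the settings used, was 63 on the authors' scaling (41 higher, 22 lower), 34 with a pseudocount of 64, 26 without the filter, 4 with the 3 prime to 5 prime ratio as a covariate, 2 without controls 2 and 3 with or without weights, and 0 with plain eBayes. With median-centred arrays, where the median of all changes was 1.13, it was 19154 (17322 higher, 1832 lower). With 1 array left out it ran from 5 to 1680, with 1680 without control 1, 1662 without control 4, 109 without control 3 and 54 without mutant 3. The replicate block, a fit with the replicate number as a factor, gave 60 (26 higher, 34 lower). No control array correlated best with the mutant array of its own number (0 of 4), which does not exclude a pairing.

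Collagen genes past the threshold numbered 0 with the settings used, 1 on the authors' scaling, with a pseudocount of 64 and without the filter (Col9a1 in each), 2 with the replicate block (Col9a1 and Col3a1), 17 with median-centred arrays (14 higher, 3 lower), and 0 to 4 with 1 array left out, with 4 without control 1 and 3 without control 4. Median-centred arrays gave class medians of 1.06 (fibrillar), 1.63 (basement membrane), 0.015 (cartilage) and 0.23 (other), or -0.07, 0.50, -1.12 and -0.91 relative to all probe sets. The authors' scaling gave 0.24 for basement membrane, -1.12 for cartilage and -0.49 for other. The basement membrane median was 0.24 without controls 2 and 3 with weights, and the other median -0.23 with the covariate. Leaving out 1 array gave -0.25 to -0.07 for fibrillar, 0.13 to 0.21 for basement membrane, -0.97 to -0.38 for cartilage and -0.21 to 0.028 for other. Processing and receptor genes past the threshold, 1 with the settings used, numbered 25 with median-centred arrays, 0 to 3 with 1 array left out, and 0 with plain eBayes, without controls 2 and 3, with the covariate and with the mean of probe sets.

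Signs turned with median-centred arrays for Col11a1 (0.23), Col3a1 (0.46), Col5a1 (0.94), Col5a2 (1.19), Col6a2 (0.56), P4hb (1.57), Itgb1 (1.55), Sox9 (1.07) and Sox6 (1.29). They turned with the mean of probe sets for Col4a5 (-0.090), Col5a2 (0.042) and Itgb1 (0.21), and without weights for Col1a1 (-0.0009), Col1a2 (-0.053), Col6a2 (0.034) and Sox6 (0.051). Without controls 2 and 3 they turned for Col1a1 (-0.16, and -0.064 with weights), Col6a1 (-0.21, and -0.065 with weights) and, without weights, Col1a2 (-0.012). With the replicate block they turned for Col1a1 (-0.14), Col1a2 (-0.051) and Col6a2 (0.046), on the authors' scaling for Col6a1 (-0.24) and Sox5 (-0.50), and with the covariate for Col6a1 (-0.23). With 1 array left out the range crossed 0 for Col18a1 (-0.10 to 0.14), Col11a1 (-0.62 to 0.15), Col1a1 (-0.15 to 0.22), Col1a2 (-0.12 to 0.21), Col6a1 (-0.21 to 1.24), Col6a2 (-0.19 to 0.055), Itgb1 (-0.26 to 0.092), Sox5 (-0.030 to 0.46) and Sox6 (-0.22 to 0.36). Of 711 single-gene values under alternatives, 623 kept direction and side of the threshold, 39 passed it newly, 6 no longer passed and 43 had the opposite sign. Of 22 collagen genes, 12 had the same sign under every alternative run. The cause of these differences was not tested. Of the collagen genes, 17 were above background on all 8 arrays, and values of the other 13 tested genes rest partly on arrays at background.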
